A study of Homo sapiens with 12 samples.

Results

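The amino acid transporters of the SLC1, SLC6, SLC7, SLC36, SLC38 and SLC43 families were followed through MESH1 knockdown in RCC4 cells. The genes were taken by symbol alone, as every listed symbol made of one of these family names, the letter A and a number, with SLC7A11 left out, and 56 of the 23710 listed symbols met this rule. The rule itself uses no measured value, but it was set with earlier results of these data known. Of the 56, 13 had no read in any library, 17 had reads but too few to be tested (at most 15 in any library), and 26 were tested with at least 1 siRNA, of which 22 were tested with both.

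RCC4 is an established human clear cell renal carcinoma line, and MESH1 is listed under the symbol HDDC3. The libraries came from 2 experiments of 6 libraries, and cells were given 40 pmol of siRNA and harvested after 72 hours. The first experiment set 3 libraries of siMESH1-CDS, an siRNA directed at the coding sequence, against 3 of non-targeting siRNA (siNT). The second set 3 libraries of siMESH1-7002 against 3 siNT libraries of its own. The design text equates siMESH1-7002 with the siRNA to the 3′UTR, although the treatment notes give another catalogue number for that reagent. The labels give no treatment or genotype beyond the siRNA for any of the 4 groups, and each siRNA was compared only with the siNT of its own experiment, so that siRNA and experiment cannot be told apart. The replicates are labelled as biological, but no source used here says whether they were transfected on separate days.

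Cells take up and exchange amino acids through carriers that differ in substrate and in driving force. SLC7A5 and its relatives are light chains that work only when bound to the heavy chain SLC3A2 or SLC3A1, and they exchange one amino acid for another. SLC1A5, SLC38A1 and SLC38A2 use the sodium gradient to bring in neutral amino acids such as glutamine, and SLC7A1 carries arginine and lysine. SLC36A1, SLC38A7 and SLC38A9 act on the lysosomal membrane, where amino acids are reported to the kinase complex mTORC1. Several of these genes are textbook targets of ATF4, the transcription factor of the integrated stress response, which is why they bear on a knockdown studied for that response. The symbols also take in carriers of other substrates, such as SLC6A6 for taurine, SLC6A8 for creatine and SLC43A3 for purine nucleobases.

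The targeted gene was low in every knockdown library. HDDC3 stood at 8.23, 6.46 and 7.75 CPM (reads scaled with TMM to a common library size) with siNT and at 0.158, 0 and 0.316 with siMESH1-CDS (log2 fold change -5.56, SE 0.823, edgeR adjusted p = 0.00174; -3.68 after correction for GC content). It stood at 13.9, 13.1 and 12.7 CPM with siNT and at 1.25, 1.18 and 1.72 with siMESH1-7002 (log2 fold change -3.25, SE 0.129, edgeR adjusted p = 2.51e-12). The libraries held 34063155 to 49134129 reads in genes in the siMESH1-CDS experiment and 24787804 to 31651125 in the siMESH1-7002 experiment. Between replicates, chi-square per degree of freedom (near 1 for sampling noise alone) was 65.2 to 275 within siMESH1-CDS and 2.24 to 15.2 within the other groups. The 275 was reached between siMESH1-CDS replicates 2 and 3, and the biological coefficient of variation was 0.299 in that experiment and 0.0490 in the other. Of 7 markers of the line (PAX8, PAX2, KRT8, KRT18, CA9, NDUFA4L2 and VIM), all reached 1 CPM on average in each group except siMESH1-CDS, where 6 did. Their summed level was 3773 to 4012 CPM with siNT and 3544 to 3585 with siMESH1-CDS, and 7628 to 8108 with siNT and 7216 to 7412 with siMESH1-7002. VIM made up most of these sums, and the other 6 markers were lower with siMESH1-CDS before GC correction, as in KRT18 (77.3 to 2.76 CPM on average), NDUFA4L2 (27.6 to 0.624) and PAX8 (168 to 58.4). Their part in the transporter changes was not tested. The 7 markers of leukocytes, endothelium and neurons summed to 0.568 to 2.06 CPM in any library, with CD3E and PECAM1 at 0 in every one.

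The siMESH1-CDS libraries carried a trend with GC content that touches every value below. Over 10 GC classes of all genes, the class of lowest GC had a median log2 change of 1.11 with siMESH1-CDS and that of highest GC one of -3.67, against 0.14 and -0.09 with siMESH1-7002. Each siMESH1-CDS change is therefore given from the counts as deposited and again after a correction that fits GC content in each library. In a lysate of many cells, a lower CPM is a smaller share of the reads, and fewer cells with a transcript and less of it per cell cannot be told apart.

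RCC4 cells expressed 19 of the 56 transporters at a mean of 1 CPM or more in siNT of the siMESH1-CDS experiment and 23 in siNT of the siMESH1-7002 experiment, and 19 passed in both. Per transcript length, SLC43A3 was the highest in the siMESH1-CDS experiment, at 125 ± 9.21 RPKM (mean ± SD of 3 siNT libraries). It was followed by SLC38A1 at 102 ± 1.88 RPKM, SLC1A5 at 87.3 ± 10.8, SLC7A5 at 65.8 ± 7.12 and SLC38A2 at 47.3 ± 1.35. In the siMESH1-7002 experiment, the taurine carrier SLC6A6 led at 124 ± 4.67 RPKM. SLC1A5 had 86.7 ± 4.00 RPKM there, SLC43A3 80.5 ± 0.817, SLC38A1 71.8 ± 6.32 and the creatine carrier SLC6A8 59.1 ± 2.43. SLC7A5 and SLC38A2 had 54.6 ± 3.94 and 40.9 ± 1.61 RPKM there and ranked 7 and 9. SLC6A6, at 23.8 ± 0.0395 RPKM, SLC6A8, at 12.6 ± 0.939, and SLC38A10, at 6.54 ± 0.504 against 57.2 ± 2.87, were lower in the siNT of the siMESH1-CDS experiment. The siNT groups belong to different experiments and were run on different lanes, and this difference was not tested.

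**Figure D1:**
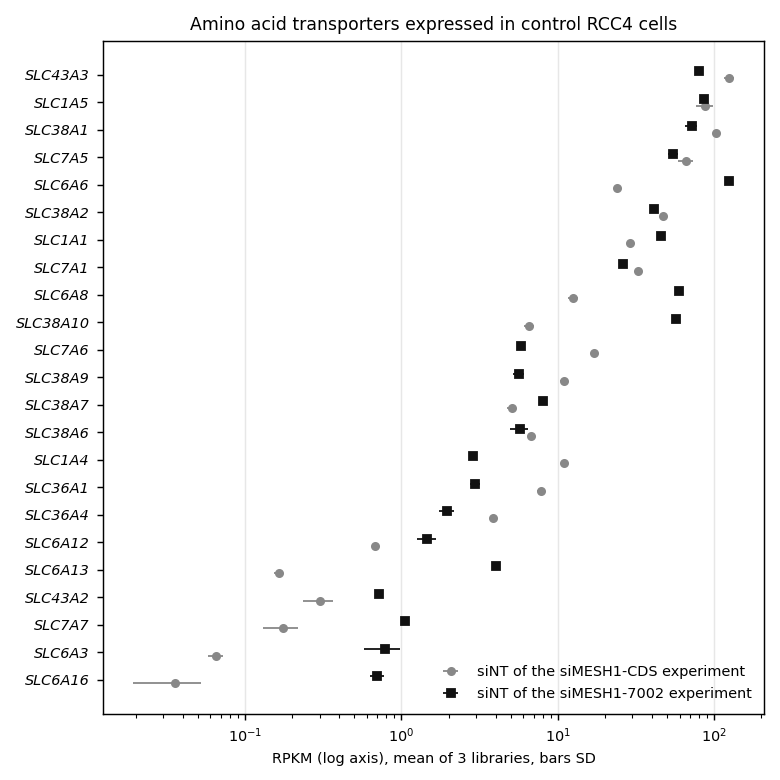
Mean level, in RPKM on a log axis, of each transporter that reached 1 CPM in a siNT group of RCC4 cells, with bars of SD over 3 libraries, for the siMESH1-CDS experiment (circles) and the siMESH1-7002 experiment (squares). SLC43A3 and SLC6A6 head the respective experiments at 125 and 124 RPKM, while SLC43A2, SLC6A3 and SLC6A16 lie under 1 RPKM in both.

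The other members were at or near 0. None of the 10 SLC6 carriers of amino acids reached 1 CPM in siNT of the siMESH1-CDS experiment, and only SLC6A16 did in the other, at 2.08 ± 0.215 CPM. The glycine carrier SLC6A9, a known ATF4 target, had 1 to 8 reads per siNT library, 0 in each siMESH1-CDS library and 2 to 6 with siMESH1-7002. SLC7A3, a cationic carrier and another known ATF4 target, had no read in any library. The system N carrier SLC38A3 had at most 2 reads, and SLC7A9, which pairs with SLC3A1 in the renal tubule, had at most 12.

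With siMESH1-CDS, 25 transporters were tested and 5 were called higher and 13 lower (edgeR quasi-likelihood test, adjusted p under 0.05 over all genes), against 36.9% higher and 37.2% lower among all 13395 genes tested. Their median log2 change was -0.74, and that of all genes was -0.05. After the GC correction, 9 were called higher and 8 lower, where 40.4% and 27.1% of all genes were called, and the median was 0.08 against 0.17 over all genes. Lower calls thus outnumbered higher ones in the counts as deposited and not after the correction. The uncorrected calls include SLC1A3 (higher), SLC38A5 and SLC6A12 (both lower), which passed the filter on low counts through the group where they were high. With at least 10 reads required in every library, 4 were called higher and 11 lower. In 13 of the 25, all siMESH1-CDS libraries lay below all siNT libraries, and in 7 above them, where 42.5% and 40.2% of all genes did so.

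With siMESH1-7002, 23 transporters were tested, with 5 called higher and 9 lower, against 26.6% and 26.7% of 13568 genes. The median log2 change was -0.14 against 0.01 over all genes. The GC correction left 6 higher and 8 lower, where 39% and 23.7% of all genes were called. Lower calls thus outnumbered higher ones with this siRNA in both fits. All siMESH1-7002 libraries lay below all siNT libraries for 10 members and above them for 4, where 29.9% and 29.6% of all genes did so. The 5 higher calls were mostly small changes, and SLC36A1 was the 1 that also passed a log2 change above 0.5. Leaving out siMESH1-7002 replicate 1, 2 or 3 left 3, 2 or 2 higher calls, and leaving out siNT replicate 1 or 2 left 3 or 1.

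Between the siRNAs, 8 transporters were called lower with both (SLC7A5, SLC7A1, SLC1A4, SLC1A5, SLC1A1, SLC43A3, SLC6A6 and SLC6A8) and 2 higher with both (SLC38A1 and SLC38A6), where 15.1% and 15.5% of the 12824 genes tested with both were called. The 2 higher calls became 0 without siMESH1-7002 replicate 2 or siNT_7002 replicate 1 or 2, 1 without siMESH1-7002 replicate 3 and 4 without siNT_7002 replicate 3. SLC36A1 and SLC38A7 were called in opposite directions, as were 11.6% of genes. After the GC correction, 5 of the 8 remained lower with both siRNAs, namely SLC1A1, SLC1A4, SLC1A5, SLC43A3 and SLC6A6, against 10.7% of genes. SLC38A6, SLC38A9 and SLC43A2 were then higher with both, against 21.2% of genes, and SLC7A5 and SLC36A1 went in opposite directions, against 14.3%. The difference between the 2 changes was itself called for 16 members, where 69.7% of 14154 genes were called, and for 16 after the GC correction, where 61.2% were. Such differences come from 1 fit of all 12 libraries scaled together, in which the median over all genes was -0.24. Before the correction, that fit also tested SLC7A2, SLC7A5, SLC7A7, SLC7A9, SLC6A3, SLC6A13, SLC6A16, SLC36A4, SLC38A1, SLC38A5 and SLC43A2 and did not call them. Over the 22 transporters tested with both, the 2 sets of log2 changes had a Pearson correlation of 0.22, and of 0.05 after the correction. These points share libraries and differ in GC content. Together the transporters made up 0.308% of all CPM with siNT and 0.238% with siMESH1-CDS, and 0.331% and 0.276% in the siMESH1-7002 experiment.

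**Figure D2:**
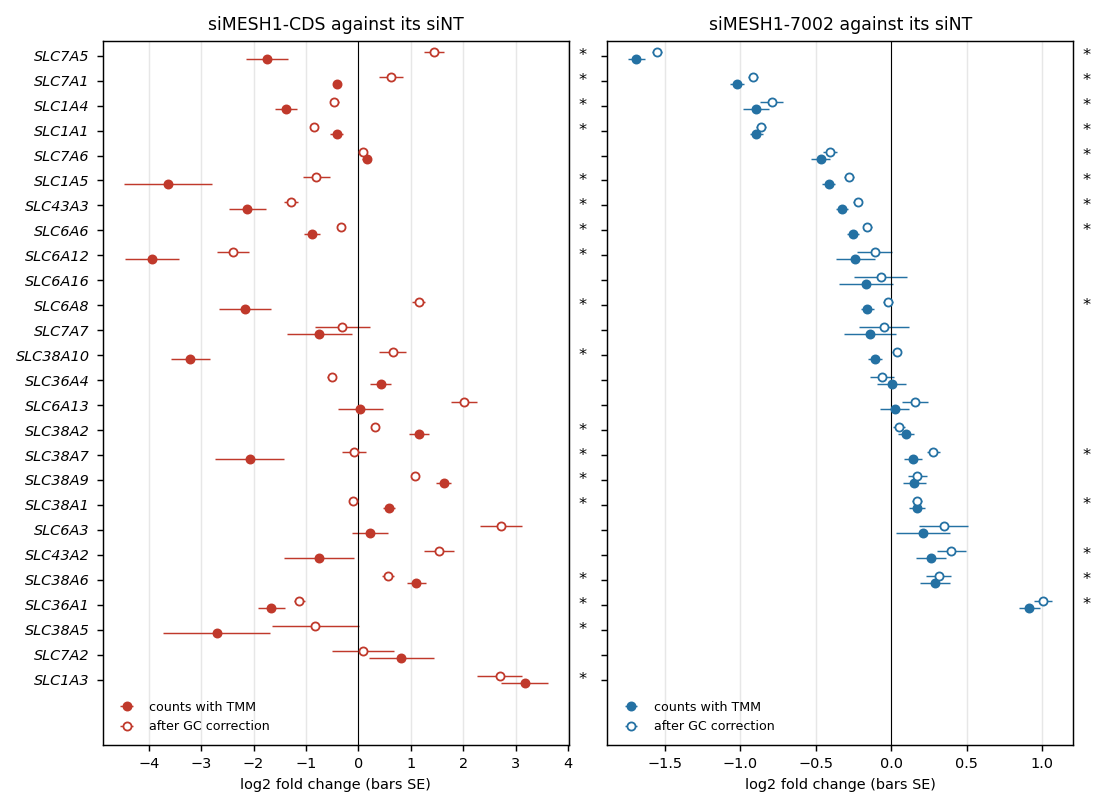
Log2 fold change with SE of each tested transporter, for siMESH1-CDS on the left and siMESH1-7002 on the right, from the counts with TMM scaling (filled points) and after GC correction (open points), with an asterisk where the uncorrected change was called at an adjusted p under 0.05. SLC7A5 lies at -1.74 and 1.44 on the left and at -1.69 and -1.55 on the right, and SLC1A1, SLC1A4, SLC1A5, SLC43A3 and SLC6A6 stay below 0 in all 4 series.

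Among the light chains of the heteromeric exchangers, SLC7A5 (LAT1), which brings in leucine and other large neutral amino acids, had the largest fall of the 23 transporters tested with siMESH1-7002. Its level was 263, 252 and 228 CPM with siNT and 75.1, 77.1 and 78.4 with siMESH1-7002. The 3 knockdown libraries lay close together at 31.0% of the siNT mean, far below the lowest siNT library (log2 fold change -1.69, SE 0.0546, edgeR adjusted p = 3.49e-13; -1.55 after GC correction). In the siMESH1-CDS experiment, it stood at 322, 262 and 312 CPM with siNT and at 94.8, 41.8 and 131 with the siRNA, again without overlap (log2 fold change -1.74, SE 0.404, edgeR adjusted p = 0.00923). Its transcript has 61.1% GC, and the GC correction turned this change to 1.44 (SE 0.186, adjusted p = 0.000886), so the direction of SLC7A5 with siMESH1-CDS turned with the scaling. SLC7A5 also has near-identical copies in the genome. SLC7A5P1 was at no more than 0.0355 CPM, and SLC7A5P2 fell within 0 to 1.07 CPM, and reads that the copies share could not be separated here.

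SLC7A6 (y+LAT2), which exports arginine in exchange for neutral amino acids, fell with siMESH1-7002 alone. It went from 36.1, 37.1 and 37.5 CPM to 25.2, 27.6 and 27.1 (log2 fold change -0.47, SE 0.0611, edgeR adjusted p = 6.77e-06). With siMESH1-CDS it was at 107 ± 1.53 and 120 ± 8.55 CPM (log2 fold change 0.16, adjusted p = 0.145; 0.08 after GC correction, adjusted p = 0.427), and the difference between the siRNAs was itself called (0.47 on the log2 scale, edgeR adjusted p = 0.00202). SLC7A7 passed the test with neither siRNA, at 0.427 ± 0.106 and 2.58 ± 0.107 CPM in the 2 siNT groups.

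SLC7A1 (CAT1), the main uptake route for arginine and lysine, fell with siMESH1-7002 from 194, 190 and 190 CPM to 94.6, 95.4 and 92.6. The SD within the groups was 1.96 and 1.42 CPM, and 49.3% of the siNT level was left (log2 fold change -1.02, SE 0.0442, edgeR adjusted p = 7.68e-12; -0.92 after GC correction). In the siMESH1-CDS experiment, the libraries had 250, 230 and 239 CPM with siNT and 186, 180 and 174 with the siRNA. All 3 lay below the siNT libraries in this case too (log2 fold change -0.41, SE 0.0774, edgeR adjusted p = 0.00409), but the corrected change was 0.62 (SE 0.235, adjusted p = 0.0539). SLC7A2, the other cationic carrier tested, had under 0.5 CPM in every library and passed no test.

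**Figure D3:**
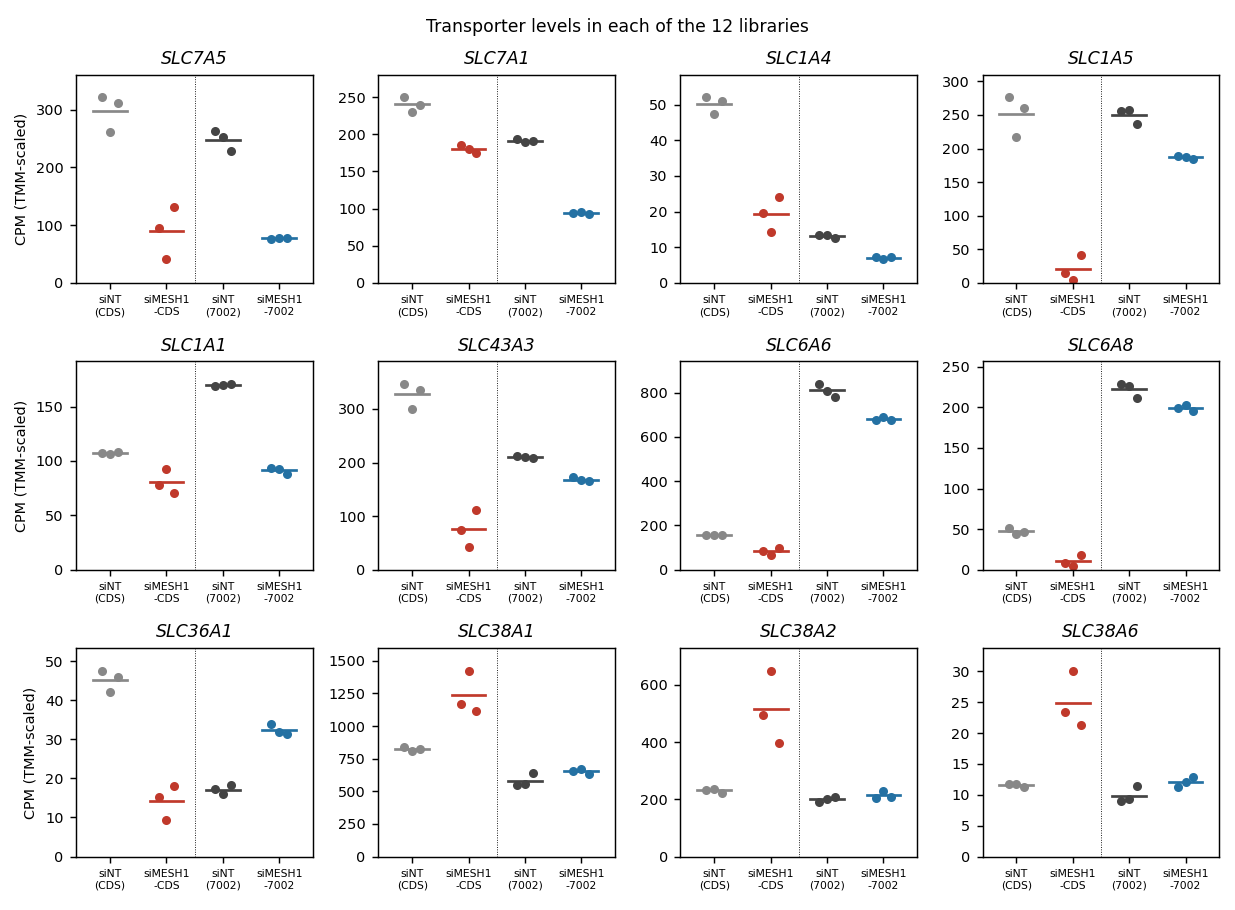
CPM of 12 transporters in each of the 12 libraries, grouped by siRNA, with a point for each library and a line at the group mean. SLC7A5 and SLC7A1 are lower in every siMESH1 library than in every siNT library of the same experiment, and SLC36A1 is at 9.47 to 18.1 CPM with siMESH1-CDS and at 31.2 to 33.9 with siMESH1-7002.

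Both neutral carriers of the SLC1 family fell with each siRNA, and both kept that direction after GC correction. SLC1A5 (ASCT2), a sodium-dependent exchanger that supplies glutamine, had 256, 257 and 236 CPM with siNT and 189, 188 and 185 with siMESH1-7002. The knockdown libraries lay close together and below every siNT library (75.0% left, log2 fold change -0.41, SE 0.0453, edgeR adjusted p = 9.23e-07). With siMESH1-CDS it went from 277, 217 and 261 CPM to 15, 3.69 and 42.1. The 3 knockdown libraries spread widely, with replicate 2 the lowest, and lay far below siNT (log2 fold change -3.64, SE 0.844, edgeR adjusted p = 0.00927; -0.80 after GC correction, adjusted p = 0.0334). SLC1A4 (ASCT1), which carries alanine, serine and cysteine, had 13.4, 13.3 and 12.6 CPM with siNT and 7.32, 6.59 and 7.16 with siMESH1-7002 (log2 fold change -0.90, SE 0.0857, edgeR adjusted p = 1.77e-07). In the siMESH1-CDS experiment, it had 52.2, 47.4 and 51.0 CPM with siNT and 19.4, 14.3 and 24.2 with the siRNA (log2 fold change -1.38, SE 0.208, edgeR adjusted p = 0.00187; -0.46 after GC correction, adjusted p = 0.00305). Its siNT and knockdown libraries were apart with both siRNAs.

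SLC1A1 (EAAC1), the glutamate, aspartate and cysteine carrier of kidney epithelium, fell with both siRNAs. It had 108, 107 and 108 CPM with siNT and 78.0, 93.0 and 70.5 with siMESH1-CDS, and it had 169, 169 and 171 with siNT and 93.3, 92.7 and 88.4 with siMESH1-7002. Every knockdown library was below its siNT libraries (log2 fold change -0.42, SE 0.121, adjusted p = 0.0209 with siMESH1-CDS; -0.89, SE 0.0456, adjusted p = 6.39e-11 with siMESH1-7002, both by edgeR). At 44.2% GC, its transcript lies on the side that rose in the siMESH1-CDS libraries, and the corrected changes were -0.85 and -0.86. The uncorrected siMESH1-CDS call was lost without siMESH1-CDS replicate 1 (adjusted p = 0.0824) or any single siNT library (0.0589 to 0.0665). SLC1A3 (GLAST), a glutamate carrier best known from astrocytes, was nearly absent with siNT, at 0.319, 0.0886 and 0.193 CPM, and reached 2.28, 1.77 and 1.52 CPM with siMESH1-CDS (log2 fold change 3.17, SE 0.446, edgeR adjusted p = 0.00148; 2.69 after GC correction). It passed the filter on low counts through the siMESH1-CDS group, where it was high, so its call is no independent result. With siMESH1-7002 it was at 0.132 to 0.139 CPM and was not tested.

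In the SLC38 family, 4 of the 7 members tested with siMESH1-CDS were called higher (SLC38A1, SLC38A2, SLC38A6 and SLC38A9) and 3 lower (SLC38A5, SLC38A7 and SLC38A10) (36.9% and 37.2% over all genes). After GC correction, 3 were higher and none lower (40.4% and 27.1% over all genes). With siMESH1-7002, 3 of the 6 tested were higher and none lower (26.6% and 26.7% over all genes), and all changes were small, with a median log2 change of 0.15. On the edge of the threshold, SLC38A5 had an adjusted p of 0.0499 with siMESH1-CDS (log2 fold change -2.71; -0.82 after correction, adjusted p = 0.407) and SLC38A7 of just under 0.05 with siMESH1-7002. SLC38A5 had 0 to 9 reads per siMESH1-CDS library and passed the filter on low counts through siNT, where it was high. Its call is therefore no independent result.

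SLC38A2 (SNAT2), the system A carrier that cells induce when amino acids run short, had 233, 236 and 224 CPM with siNT and 495, 650 and 398 with siMESH1-CDS. Its mean rose to 223% of siNT, without overlap (log2 fold change 1.15, SE 0.184, edgeR adjusted p = 0.00228), and the rise was 0.31 after GC correction (adjusted p = 0.00307). With siMESH1-7002 the groups overlapped, at 192, 201 and 208 CPM with siNT and 204, 230 and 208 with the siRNA (log2 fold change 0.10, SE 0.0515, adjusted p = 0.123). Its close relative SLC38A1 (SNAT1), the most abundant transporter in CPM in the siMESH1-CDS experiment, had 837, 807 and 824 CPM with siNT and 1172, 1425 and 1113 with siMESH1-CDS (log2 fold change 0.59, SE 0.118, edgeR adjusted p = 0.00539). The correction took this to -0.11 (adjusted p = 0.108), and with siMESH1-7002 the libraries overlapped, at 545 to 638 CPM with siNT and 634 to 667 with the siRNA (log2 fold change 0.17, adjusted p = 0.0116). That call was lost without siMESH1-7002 replicate 2 (adjusted p = 0.0557) and without siNT replicate 1 or 2 (0.0561 and 0.0679).

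SLC38A9, the lysosomal arginine sensor that signals to mTORC1, had the largest rise with siMESH1-CDS among the members expressed in its siNT. It went from 30.4, 32.0 and 33.2 CPM to 99.6, 112 and 82.6 (log2 fold change 1.62, SE 0.139, edgeR adjusted p = 0.000380; 1.08 after GC correction, adjusted p = 9.64e-05). With siMESH1-7002 it was at 15, 17 and 17.5 CPM with siNT and 19.1, 18 and 17.8 with the siRNA, which did not pass the test (log2 fold change 0.15, adjusted p = 0.106) but did after GC correction (0.17, adjusted p = 0.0223). SLC38A6, whose substrates are less well defined, rose from 11.6 ± 0.266 to 24.9 ± 4.59 CPM with siMESH1-CDS (log2 fold change 1.11, SE 0.177, edgeR adjusted p = 0.00229; 0.57 after correction). With siMESH1-7002 it was at 9.86 ± 1.30 and 12.1 ± 0.819 CPM, with overlapping groups (log2 fold change 0.29, adjusted p = 0.0192), and the call was lost without siMESH1-7002 replicate 2 or 3 or siNT replicate 1 or 2 (adjusted p = 0.0503 to 0.0948).

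SLC38A7, the lysosomal glutamine exporter, was called in opposite directions. It had 24.3, 21.5 and 23.4 CPM with siNT and 4.62, 1.46 and 10.3 with siMESH1-CDS, but 37.7, 37.4 and 34.3 with siNT and 40.7, 40.6 and 39.6 with siMESH1-7002. Neither experiment had overlapping groups (log2 fold change -2.08, SE 0.659, adjusted p = 0.0286, and 0.14, SE 0.0591, by edgeR), and the siMESH1-CDS change was -0.08 after GC correction (adjusted p = 0.763). The siMESH1-CDS call was lost without siMESH1-CDS replicate 1 (adjusted p = 0.0915) or any single siNT library (0.0646 to 0.0700), and the siMESH1-7002 call without any single library but siNT replicate 1 (adjusted p = 0.0684 to 0.145). SLC38A10 had 28.1 ± 2.17 CPM with siNT and 3.05 ± 1.35 with siMESH1-CDS (log2 fold change -3.21, SE 0.380, edgeR adjusted p = 0.000848), and its corrected change was 0.65 (adjusted p = 0.0688). With 64.3% GC, its transcript had the highest GC content among the tested members. With siMESH1-7002 it was at 93.0% of siNT (log2 fold change -0.11, adjusted p = 0.0655).

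SLC36A1 (PAT1), a proton-coupled carrier of small amino acids on lysosomes and the cell surface, went in opposite directions with the 2 siRNAs, whether or not GC content was corrected. It had 47.6, 42.0 and 46.0 CPM with siNT and 15.2, 9.47 and 18.1 with siMESH1-CDS (log2 fold change -1.66, SE 0.253, edgeR adjusted p = 0.00193). In the siMESH1-7002 experiment, it had 17.1, 16.0 and 18.3 CPM with siNT and 33.9, 31.8 and 31.2 with the siRNA (log2 fold change 0.91, SE 0.0700, edgeR adjusted p = 1.19e-08). The mean was at 31.6% of siNT with the first and at 189% with the second, and the groups did not overlap. The corrected changes were -1.13 and 1.01, and the difference between the siRNAs was -2.73 on the log2 scale (edgeR adjusted p = 1.78e-05; -2.13 after correction, adjusted p = 2.93e-07). Its relative SLC36A4 was at 23.1 ± 0.526 CPM with siNT and 31.0 ± 8.04 with siMESH1-CDS (log2 fold change 0.42, adjusted p = 0.106), and after GC correction it was called lower (-0.51, adjusted p = 0.00254). With siMESH1-7002 it was at 11.7 ± 1.23 and 11.8 ± 1.20 CPM and was not called.

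In the SLC43 family, SLC43A3 fell with both siRNAs. It had 347, 301 and 336 CPM with siNT and 73.8, 41.5 and 111 with siMESH1-CDS (log2 fold change -2.12, SE 0.352, edgeR adjusted p = 0.00263; -1.29 after GC correction, adjusted p = 0.000346). With siMESH1-7002 it went from 213, 211 and 209 CPM to 172, 167 and 165 (log2 fold change -0.33, SE 0.0425, edgeR adjusted p = 6.80e-06; -0.22 after correction). The nucleobase carrier thus kept 23.0% of its siNT level with the first siRNA and 79.8% with the second. SLC43A2 (LAT4), which lets large neutral amino acids leave the cell, had 5.87 ± 0.199 CPM with siNT and 7.05 ± 0.359 with siMESH1-7002 (log2 fold change 0.26, adjusted p = 0.0309), a call lost without siMESH1-7002 replicate 1 or 3 or siNT replicate 1 or 2 (adjusted p = 0.0585 to 0.116). Its siMESH1-CDS libraries, at 0.854, 0.468 and 3.02 CPM, overlapped the siNT libraries, at 3.01, 1.97 and 2.34 (log2 fold change -0.75, adjusted p = 0.337), and the corrected change was 1.54 (adjusted p = 0.00385).

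Before GC correction, the SLC6 members called with either siRNA were carriers of osmolytes and creatine. SLC6A3 and SLC6A13 were not called then, at log2 changes of 0.22 and 0.03 with siMESH1-CDS. After the correction, both were called higher with it (2.72 and 2.02, edgeR adjusted p = 0.00148 and 0.000675). They had only 7 to 20 reads per library in that experiment. SLC6A6, the taurine carrier, had 155 CPM in each siNT library and 84.2, 67.9 and 99.3 with siMESH1-CDS (log2 fold change -0.89, SE 0.148, edgeR adjusted p = 0.00266; -0.33 after GC correction, adjusted p = 0.00155). It went from 841, 810 and 780 CPM to 678, 688 and 674 with siMESH1-7002 (log2 fold change -0.25, SE 0.0409, edgeR adjusted p = 6.53e-05; -0.16 after correction). The groups were apart in both experiments, and the change was small in the second. The creatine carrier SLC6A8 had 47.2 ± 3.53 CPM with siNT and 10.5 ± 7.03 with siMESH1-CDS (log2 fold change -2.16, adjusted p = 0.00858), a change that became 1.15 after GC correction (adjusted p = 0.000423). With siMESH1-7002 it was at 222 ± 9.13 and 199 ± 3.75 CPM (log2 fold change -0.16, adjusted p = 0.00710), and the corrected change was -0.02 (adjusted p = 0.571). Its copy SLC6A10P was at 0 to 0.150 CPM in the siMESH1-CDS experiment and 3.56 to 4.34 in the other, and shared reads could not be separated. SLC6A12, the betaine and GABA carrier, fell from 2.24 ± 0.0889 to 0.145 ± 0.126 CPM with siMESH1-CDS (log2 fold change -3.93, SE 0.513, edgeR adjusted p = 0.00115; -2.39 after correction) and was at 4.86 ± 0.666 and 4.13 ± 0.283 CPM with siMESH1-7002 (adjusted p = 0.127). With 2 to 10 reads per siMESH1-CDS library, it passed the filter on low counts in that experiment through siNT, where it was high. Its siMESH1-CDS call is therefore no independent result.

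GC content and the siMESH1-CDS change ran together among the transporters as they did over all genes. Over the 25 tested, the Spearman correlation of transcript GC percent with the log2 change was -0.77, and it was 0.19 after the correction. Over the 23 tested with siMESH1-7002, it was -0.19. These are descriptions over genes that share libraries. Of the members called with siMESH1-CDS, 5 changed sign under the correction, namely SLC7A5, SLC7A1, SLC6A8, SLC38A10 and SLC38A1. The first 4 of these have 52.7% to 64.3% GC and SLC38A1 has 41.3%.

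**Figure D4:**
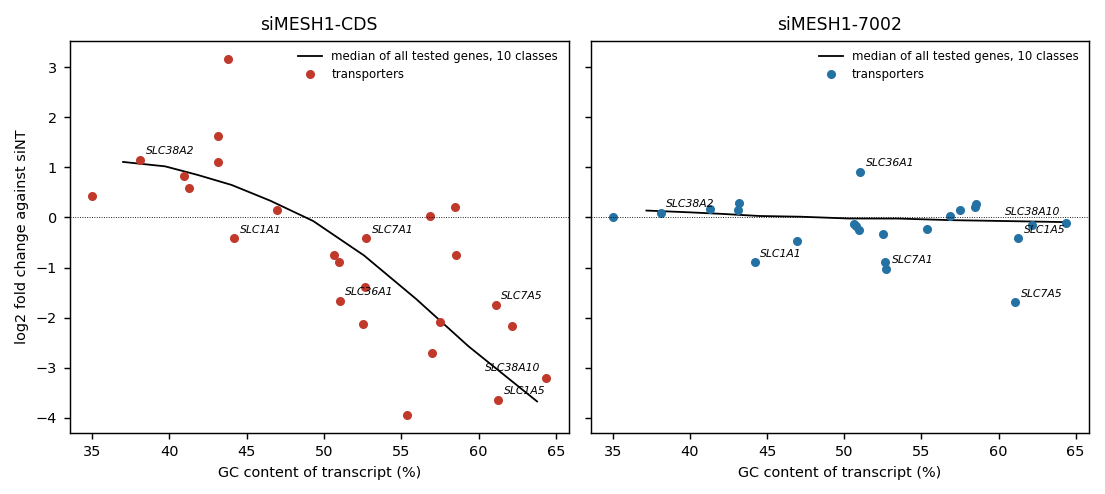
Log2 fold change of each tested transporter (points), without GC correction, against the GC content of its transcript in percent, for siMESH1-CDS on the left and siMESH1-7002 on the right. The line joins the medians of all tested genes in 10 classes of GC content. With siMESH1-CDS the uncorrected points descend with GC content (Spearman -0.77, n = 25), and the siMESH1-7002 points do so far less (Spearman -0.19, n = 23).

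Among the 7 transporters listed as known ATF4 targets (SLC7A1, SLC7A3, SLC7A5, SLC38A2, SLC1A4, SLC1A5 and SLC6A9), 5 were expressed and tested. With siMESH1-7002, 4 were lower and none higher, both before and after GC correction, with a median log2 change of -0.90, where 26.7% and 26.6% of all genes were lower and higher (23.7% and 39% after correction). With siMESH1-CDS, 4 were lower and SLC38A2 higher, and the correction left 2 lower and 2 higher, where 37.2% and 36.9% of all genes were lower and higher (27.1% and 40.4% after correction). ATF4 itself had 324 ± 5.30 CPM with siNT and 154, 31.9 and 330 in the siMESH1-CDS libraries (log2 fold change -0.91, adjusted p = 0.292; 0.78 after GC correction, adjusted p = 0.115), and 257 ± 3.45 and 256 ± 9.31 CPM with siMESH1-7002 (adjusted p = 0.954; log2 fold change 0.13 after GC correction, adjusted p = 0.00264). These are transcript levels, and ATF4 is controlled largely through its translation.

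ATF4 binds with C/EBP partners to the C/EBP-ATF response element, searched here as TGATGNAA on either strand of the RefSeq promoters, which reach from 250 bases before to 50 bases after each start (GRCh38.p14). Of the 43 members with a promoter in that table, 5 held it, against 4.46% of all 27305 symbols. Of the 63 promoters of these members, 5 held it, against 3.62% of all 35116 promoters of the same length. The members had more promoters per symbol than all symbols did, and the shares were not tested. The matches with 10 bases on each side are shown because 3 of them lie at genes called lower with both siRNAs before GC correction (SLC7A1, SLC1A4 and SLC1A5). Of the 22 members tested with both, 8 were so called, as were 15.1% of all genes. After the correction, SLC7A1 was at a log2 change of 0.62 with siMESH1-CDS. The choice to show them was made with these calls known, and a link between motif and direction was not tested. Each is written 5′ to 3′ on the strand of the gene, with the motif in capitals, and in SLC1A4 it reads on the opposite strand. The positions are chr13:29595664-29595691 for SLC7A1 (minus strand), chr2:64989382-64989409 for SLC1A4 (plus strand), chr19:46784894-46784921 for SLC1A5 (minus strand), chr12:46266503-46266530 for SLC38A1 (minus strand) and chr5:36596358-36596385 for SLC1A3 (plus strand).
SLC7A1: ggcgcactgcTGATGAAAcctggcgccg
SLC1A4: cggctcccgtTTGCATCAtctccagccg
SLC1A5: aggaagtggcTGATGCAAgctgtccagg
SLC38A1: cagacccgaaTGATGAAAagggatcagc
SLC1A3: aggaaatgacTGATGCAAagcagggtta
SLC7A1 and SLC38A1 share the 8 letters TGATGAAA, and SLC1A5, SLC1A3 and, on the opposite strand, SLC1A4 share TGATGCAA. Before GC correction, SLC7A1 was called lower and SLC38A1 higher with both siRNAs, and SLC1A4 and SLC1A5 were called lower with both. The match is a description of these windows. The other members of the table, SLC7A5 and SLC38A2 included, do not hold these letters in the window.

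The partners of the transporters were listed with other carriers of amino acids. The heavy chain SLC3A2, which brings SLC7A5 and SLC7A6 to the cell surface, had 209, 176 and 192 CPM with siNT and 77.8, 31.5 and 126 with siMESH1-CDS (log2 fold change -1.29, SE 0.470, edgeR adjusted p = 0.0451), a change that became 0.81 after GC correction (adjusted p = 0.000221). With siMESH1-7002 it fell from 146, 145 and 134 CPM to 123, 113 and 115 (log2 fold change -0.27, SE 0.0509, edgeR adjusted p = 0.000245). The loss of SLC7A5 with this siRNA was thus larger on the log2 scale than that of its heavy chain. The other heavy chain, SLC3A1, went in opposite directions. It had 44.5, 59.7 and 52.2 CPM with siNT and 190, 227 and 152 with siMESH1-CDS (log2 fold change 1.86, edgeR adjusted p = 0.000552; 1.21 after correction), but fell from 277, 282 and 303 to 186, 189 and 187 with siMESH1-7002 (log2 fold change -0.62, edgeR adjusted p = 6.86e-09). Of the 25 partners and carriers listed, 18 were tested with siMESH1-CDS, with 8 higher and 9 lower (9 and 3 after correction), and 17 with siMESH1-7002, with 2 higher and 4 lower (4 and 4 after correction). Over all genes, 36.9% and 37.2% were higher and lower with siMESH1-CDS (40.4% and 27.1% after correction) and 26.6% and 26.7% with siMESH1-7002 (39% and 23.7%).

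Of 25 listed genes of amino acid sensing and its signalling, ATF4 among them, all were tested with both siRNAs. The siMESH1-CDS fit had 9 higher and 13 lower, and 14 were higher and 5 lower after GC correction. With siMESH1-7002, 10 were higher and 3 lower (17 and 3 after correction). The shares over all genes are those just given, and these counts were not tested against them or against those of the transporters. RRAGC, a Rag GTPase that recruits mTORC1 to lysosomes, went from 118 ± 2.67 to 264 ± 61.5 CPM with siMESH1-CDS (log2 fold change 1.16, edgeR adjusted p = 0.00183; 0.82 after correction) and from 76.1 ± 7.09 to 29.1 ± 2.33 with siMESH1-7002 (log2 fold change -1.39, edgeR adjusted p = 9.36e-11). FNIP2, which acts on Rag GTPases together with FLCN, went from 117 ± 2.82 to 39.8 ± 3.70 CPM and from 113 ± 4.39 to 193 ± 7.32 (log2 fold changes -1.55 and 0.77, edgeR adjusted p = 0.000243 and 8.43e-10), and its corrected siMESH1-CDS change was -2.10. RRAGC and FNIP2 were picked out after their values were seen.

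The siMESH1-CDS libraries were run on several lanes, and lanes 4 and 6 each held a siNT and a siMESH1-CDS library. For all 18 transporters called with siMESH1-CDS, every siMESH1-CDS library already lay on the same side of every siNT library. Their direction within a lane was thus fixed beforehand and is no test of the lane. The differences within a lane, on the log2(CPM + 0.5) scale, ran from -2.70 to 1.43 in lane 4 and from -4.08 to 2.00 in lane 6. Leaving out siMESH1-CDS replicate 2, which had the largest chi-square values against its group, gave 5 higher and 12 lower calls. The siMESH1-7002 experiment was run on lane 2 alone.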

How the data were processed

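RNA was sequenced from 12 libraries of RCC4 cells (TruSeq stranded mRNA, single-end reads). The authors deposited raw read counts for each gene symbol, in whole numbers without normalization, made with HISAT2 and HTSeq on hg19 according to the submitters' processing notes. The gene annotation is not given in the sources used here. The deposited DESeq2 tables hold the authors' own comparisons and were not used. Summary rows without a gene entered neither library sizes nor tests. Reads outside annotated genes were 14.7% to 15.5% of all reads with siNT and 18.4% to 20.8% with siMESH1-CDS. They were 10.0% to 11.2% with siNT and 10.2% to 12.2% with siMESH1-7002. Unaligned reads were 5.31% to 16.2% with siNT and 2.51% to 3.21% with siMESH1-CDS. Reads without a unique alignment were 9.98% to 12.6% in the siMESH1-CDS experiment and 23.6% to 27.1% in the other. The part of these differences in the changes was not tested. Reads dropped for low alignment quality were 6.31% to 7.59% in the siMESH1-CDS experiment and 0 in the other, so the 2 experiments were not counted alike. A gene at 1 CPM rests on about 25 to 49 reads, and counting error is only a part of the spread.

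Groups follow the labels. Counts were fitted per experiment with edgeR 4.0.16 in R 4.3.3 (filterByExpr, TMM, glmQLFit and glmQLFTest), P-values were adjusted over all genes tested (Benjamini-Hochberg) and called under 0.05, and the difference between siRNAs was an interaction over 12 libraries. P-values set a difference between groups against the spread between these libraries. The SE of an edgeR log2 change was derived as its absolute value divided by the square root of the F statistic of the test. GC content and length are those of the longest coding transcript in GENCODE 29, matched for 21257 symbols by name and 1100 by an older symbol, with 1353 unmatched. RPKM is CPM per kilobase of that transcript. The GC correction fits, in each library, a lowess curve of log2 CPM against GC content (span 0.3). The deviation of this curve from its mean over the libraries in the fit enters the model as an offset for each gene. Promoters come from RefSeq (GRCh38.p14). Python 3.11.15, pandas 2.3.3, scipy 1.17.1 and matplotlib 3.10.9 were used.

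The members named with values by rule were the top 5 by RPKM, those called with both siRNAs in the same or in opposite directions, the 5 largest calls per direction with groups apart, and SLC7A1 and SLC38A2. Some other members have values outside this rule, among them SLC36A4, SLC38A5, SLC6A9, SLC6A16, SLC7A2 and SLC7A7. Members and lists were chosen with earlier results of these data known. Alternatives were DESeq2 1.42.0, voom with quality weights (limma 3.58.1), other scaling, filters and thresholds, a lane or replicate term, 1 model of 4 groups, and leaving out each library. Same-numbered libraries deviated with correlations of -0.08 to 0.24, so numbers were not used to pair them.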

Additional observations from a re-analysis of the deposited data

Results flagged for a closer look

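In a fit of all 12 libraries, the change of 16 transporters differed between the siRNAs (edgeR quasi-likelihood test of the interaction, adjusted p under 0.05 over 14154 genes, of which 69.7% were called). Values are log2 changes with siMESH1-CDS minus those with siMESH1-7002, and the median over all genes was -0.24. SiRNA and experiment cannot be told apart in any of them.

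SLC36A1 differed by -2.7287 (adjusted p = 1.78e-05), fell with siMESH1-CDS and rose with siMESH1-7002, and the difference was -2.13 after GC correction. SLC38A7, with calls in opposite directions, differed by -2.3716, and by -0.26 after GC correction (adjusted p = 0.296).

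The change with siMESH1-CDS was the lower one for SLC6A12 (-3.8502), SLC1A5 (-3.3679), SLC38A10 (-3.252), SLC6A8 (-2.1539), SLC43A3 (-1.943), SLC6A6 (-0.7866) and SLC1A4 (-0.6307). After the correction, the differences were -2.21 for SLC6A12, -1.05 for SLC43A3 and -0.18 for SLC6A6, each still called, and they were not called for SLC1A5 (-0.49, adjusted p = 0.181) or SLC38A10 (adjusted p = 0.148). SLC6A8 and SLC1A4 turned, to 1.11 and 0.35. SLC1A4 lost its uncorrected call without siMESH1-7002 replicate 1 or 3, siMESH1-CDS replicate 1, siNT_7002 replicate 3 or siNT_CDS replicate 1 or 3 (adjusted p = 0.0557 to 0.0656).

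The change with siMESH1-CDS was the higher one for SLC1A3 (2.3166), SLC38A9 (1.3228), SLC38A2 (0.9055), SLC38A6 (0.6659), SLC7A6 (0.4741), SLC7A1 (0.4569) and SLC1A1 (0.324). SLC1A3 passed the filter on low counts through the siMESH1-CDS group, where it was high, and had 2 to 4 reads in each library of the siMESH1-7002 experiment, so its difference is given as a value only. SLC38A9 (0.84), SLC7A6 (0.44) and SLC7A1 (1.56) kept their calls after the correction. SLC1A3 (1.90, adjusted p = 0.0555), SLC38A2 (0.18, adjusted p = 0.0649) and SLC38A6 (0.19, adjusted p = 0.222) did not, and SLC1A1 was at -0.05 (adjusted p = 0.623). Before the correction, SLC1A1 also lost its call without any single library but siMESH1-CDS replicate 1 or 3 (adjusted p = 0.0562 to 0.0990), and SLC1A3 without siNT_7002 replicate 3 (adjusted p = 0.0855). SLC7A5 was not called to differ (-0.20, adjusted p = 0.692), but it differed by 2.99 after the correction (adjusted p = 3.07e-07).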

How the results depend on the processing

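Several settings moved the transporter counts. With siMESH1-CDS, the higher calls were 9 after correcting for GC content, 9 for GC content and length and 8 with voom, in place of 5, and the lower calls were 8 with the GC correction in place of 13. Members lower with both siRNAs were 5 under either correction, 2 with a log2 change above 0.5 and 4 in 1 model of 4 groups, in place of 8. Members higher with siMESH1-7002 were 1 with a log2 change above 0.5, 1 at an adjusted p under 0.01, 3 with DESeq2 and 1 in the model of 4 groups, in place of 5, and lower members were 4 and 5 with the first and last of these in place of 9. Members higher with both were 0, 0 and 0 with the log2 limit, the stricter p and the model of 4 groups, and 4 with voom, in place of 2. That model shares the spread of the siMESH1-CDS libraries with the siMESH1-7002 experiment.

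Leaving out 1 library at a time gave 5 to 6 higher and 10 to 14 lower calls with siMESH1-CDS, 1 to 6 and 9 to 11 with siMESH1-7002, 0 to 4 and 7 to 10 with both, 13 to 20 that differed between siRNAs, and 19 and 23 expressed members throughout. SLC1A1 and SLC38A7 lost their siMESH1-CDS calls without siMESH1-CDS replicate 1 or any 1 siNT library, and SLC38A1, SLC38A6, SLC38A7 and SLC43A2 lost their siMESH1-7002 calls without some libraries. The direction held in every one of these fits.

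Changes that reversed with siMESH1-CDS, with the GC and then the GC and length correction, were those of SLC7A5 (1.44 and 1.25), SLC7A1 (0.62 and 0.43), SLC6A8 (1.15 and 1.01), SLC38A10 (0.65 and 0.47) and SLC38A1 (-0.11 and -0.29). Differences between siRNAs reversed for SLC1A1 (-0.049 and -0.045), SLC1A4 (0.35 and 0.29), SLC38A10 (0.33 and 0.28) and SLC6A8 (1.11 and 1.11). These fits change the scaling by GC content, and by length in the second, and with it the overall level of each library. The median over all genes with siMESH1-CDS was -0.05 uncorrected, 0.17 after the first correction and 0.08 after the second. For the difference between siRNAs, that median was -0.24, 0.05 and 0.08. What gave the libraries their trend was not tested. Scaling by library size moved the median of all genes with siMESH1-CDS to -0.31 and left 5 higher and 13 lower calls.

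With a replicate block, 5 were higher and 12 lower with siMESH1-CDS, 4 and 9 with siMESH1-7002, 2 and 8 with both, and 15 differed, and SLC38A7 lost its siMESH1-7002 call (0.14, adjusted p = 0.0554). Same-numbered libraries did not deviate together in every pair, and the numbers were not taken as pairs.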
